A study of Mus musculus with 12 samples.

Results

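A set of 10 transcripts used as markers of satellite glial cells were followed through mouse dorsal root ganglia before and after a nerve injury. The 10 members, Fabp7, Gfap, Gja1, Glul, Slc1a3, Ednrb, S100b, Apoe, Cdh19 and Sox10, were taken by gene symbol from the 24060 genes of the expression files, and all 10 were listed there. Satellite glial cells wrap the cell bodies of sensory neurons in the ganglion. They take up glutamate and potassium released around the neuron, are coupled to each other by gap junctions, and change in shape and gene expression after nerve injury, with Gfap as the classical marker of that reaction. Several of the members are not private to these cells: S100b, Sox10 and Cdh19 are also made by Schwann cells, and Apoe by macrophages.

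The ganglia came from male C57BL/6J mice, adults of 9 to 10 weeks, and the 12 RNA libraries form 4 groups of 3: naive animals, and animals at 1, 3 and 7 days after spared nerve injury (SNI). In SNI the common peroneal and tibial nerves are tied and cut and the sural nerve is spared, so that injured and uninjured neurons share the same ganglia. The controls were naive, with no sham operation among the libraries analysed here, so surgery and nerve injury cannot be told apart. The labels do not give the spinal level of the ganglia, or whether animals were pooled for a library, and the spread that enters each p-value is that between these libraries, which may be technical. The RNA was amplified with a low-input kit. In bulk tissue, fewer cells of a type and less RNA per cell cannot be told apart.

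Levels are given in RPKM, read counts scaled to transcript length and library size, as deposited. The files held between 13626893 and 17952865 reads per library. The injury labels were checked with Atf3, a transcription factor induced in axotomised neurons, which stood at 2.36 ± 0.0266 RPKM in naive ganglia and at 69.4 ± 10.7, 90.9 ± 11.7 and 55.8 ± 13.2 RPKM at days 1, 3 and 7 (SD, n = 3). All 15 further satellite glia markers examined were above 1 RPKM in at least 3 libraries, among them Kcnj10, the inwardly rectifying potassium channel of these cells, at 21.2 ± 0.201 RPKM in naive ganglia. Markers of oligodendrocytes, Mog, Mobp, Opalin and Olig2, were under 1 RPKM in all 12 libraries. Summed over 9 skeletal muscle genes, naive replicate 1 held 34.7 RPKM and day 7 replicate 2 held 24.7 RPKM, while no other library was above 6.1 RPKM. Calls lost without those 2 libraries are named below.

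Because the 2 members that passed a test, Ednrb and Glul, and the injury marker Gfap are read as changes of transcript level, the sequence in front of their transcription start is shown first, with Slc1a3 and Apoe for comparison. Each window runs from 250 bases before to 10 bases after the RefSeq start (GRCm38.p6, strand of the gene, 5′ to 3′). Capitals mark 2 motifs, ACAANG and TTCNNNGAA. ACAANG is a loose form of the core bound by SOX factors such as Sox10, which has A or T at N. TTCNNNGAA is the palindrome bound by STAT factors. Both strands were searched, N being any base. The palindrome reads the same on both strands, and the capitals of the loose SOX pattern are shown as they stand on the gene's strand. The motifs overlapped in none of these windows.
Ednrb, chr14:103843692-103843951, minus strand: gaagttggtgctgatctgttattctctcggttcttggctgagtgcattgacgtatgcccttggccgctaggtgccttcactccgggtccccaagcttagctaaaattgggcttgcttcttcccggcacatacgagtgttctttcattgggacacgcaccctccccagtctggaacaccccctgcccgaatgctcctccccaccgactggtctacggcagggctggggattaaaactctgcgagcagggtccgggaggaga
Glul, chr1:153899679-153899938, plus strand: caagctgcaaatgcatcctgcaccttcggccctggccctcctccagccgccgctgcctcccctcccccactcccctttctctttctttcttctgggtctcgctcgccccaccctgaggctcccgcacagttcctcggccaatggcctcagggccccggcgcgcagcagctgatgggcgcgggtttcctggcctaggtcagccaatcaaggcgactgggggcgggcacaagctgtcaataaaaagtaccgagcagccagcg
Gfap, chr11:102897191-102897450, minus strand: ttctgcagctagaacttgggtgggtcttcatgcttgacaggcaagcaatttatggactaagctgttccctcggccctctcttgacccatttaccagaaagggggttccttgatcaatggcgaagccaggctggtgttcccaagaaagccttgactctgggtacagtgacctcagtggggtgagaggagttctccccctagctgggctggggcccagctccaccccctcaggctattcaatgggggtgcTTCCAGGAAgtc
Slc1a3, chr15:8710798-8711057, minus strand: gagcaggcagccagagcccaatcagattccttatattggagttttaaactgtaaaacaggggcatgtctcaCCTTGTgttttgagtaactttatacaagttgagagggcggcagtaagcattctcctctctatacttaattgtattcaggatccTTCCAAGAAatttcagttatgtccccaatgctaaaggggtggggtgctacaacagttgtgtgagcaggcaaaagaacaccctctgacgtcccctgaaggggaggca
Apoe, chr7:19699179-19699438, minus strand: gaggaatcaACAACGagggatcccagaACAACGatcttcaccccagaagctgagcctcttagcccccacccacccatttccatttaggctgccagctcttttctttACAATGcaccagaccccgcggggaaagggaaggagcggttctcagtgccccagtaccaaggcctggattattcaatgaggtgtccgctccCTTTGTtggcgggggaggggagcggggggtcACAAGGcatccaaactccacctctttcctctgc
RefSeq gave 10 windows for 8 of the 10 members, several of them for Apoe. Neither motif stood in the windows of Ednrb and Glul. The STAT palindrome stood in 2 members, Gfap, where TTCCAGGAA lies across the start site, and Slc1a3, where TTCCAAGAA begins 96 bases before it. It was found in 8.3% of all 32851 RefSeq windows of 300 bases. The loose SOX pattern stood in 4 members, in 1 window each out of the 10, against 41.2% of all windows. It stood 5 times in this Apoe window and 1 time each in Fabp7, S100b and Slc1a3. Only ACAATG and CTTTGT, both in Apoe, had A or T at N. The matches in Fabp7, S100b and Slc1a3 had C or G there. The other Apoe windows, not printed, held neither motif. A match is a run of letters, not a measured binding site. The Glul window overlaps annotated exons of Teddm2 and Mir8114. Glul was the only member whose exons overlapped those of other genes (also Teddm2 and Mir8114), so its reads could be shared with them.

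In naive ganglia the members covered a wide range of levels. Fabp7, a fatty acid binding protein of immature and satellite glia, was highest at 191 ± 50.1 RPKM. Apoe, the lipid carrier, followed at 90.2 ± 28.4 RPKM and S100b, a calcium-binding protein, at 82.9 ± 18.2 RPKM, and the 2 did not differ beyond their spread. Cdh19, an adhesion molecule of the Schwann and satellite glia lineage, stood at 53.7 ± 1.45 RPKM, below every naive library of S100b. Ednrb, the endothelin B receptor, at 17.3 ± 0.504 RPKM, Glul, glutamine synthetase, at 17.0 ± 2.94 RPKM, and Sox10, the transcription factor of neural crest glia, at 16.2 ± 1.16 RPKM overlapped as neighbours in the order. Slc1a3, the glutamate transporter GLAST, at 2.86 ± 0.161 RPKM and Gja1, the gap junction protein connexin 43, at 2.36 ± 0.399 RPKM also overlapped. Gfap, the astrocytic intermediate filament, was lowest at 0.12 ± 0.0889 RPKM (SD, n = 3 for each). These levels are divided by length, but the naive libraries still differed in their balance of short and long genes, as described below. The highest members, Fabp7, Apoe and S100b, were also the shortest tested ones (762, 1251 and 1661 bases). The order of genes of unlike length is therefore only a description.

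**Figure D1:**
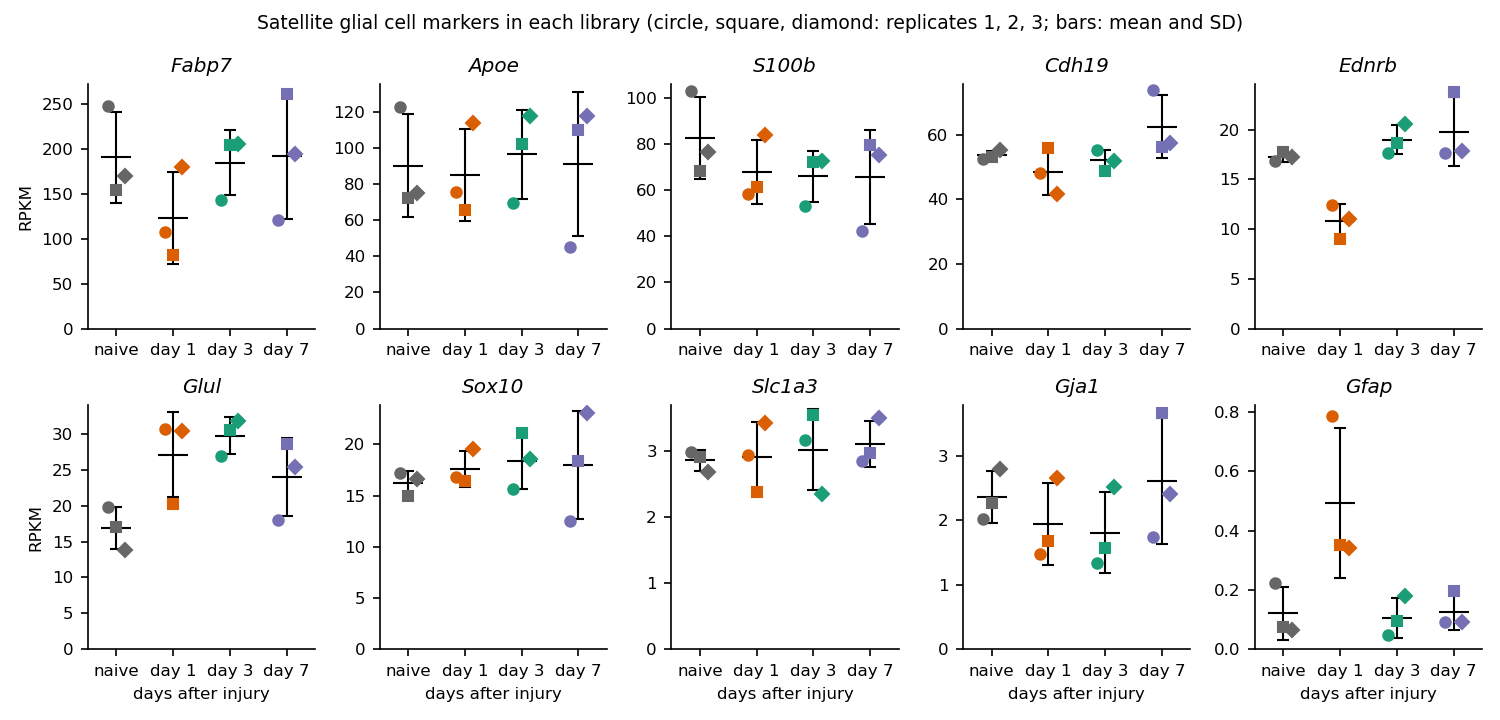
RPKM of the 10 members in each of the 12 libraries, in naive ganglia and at days 1, 3 and 7 after SNI; symbols are libraries, and bars the mean and SD of 3. The 3 day 1 libraries of Ednrb, between 8.99 and 12.4 RPKM, lie below all other libraries, and those of Gfap, between 0.342 and 0.786 RPKM, above all others.

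Of the 10 members, 9 passed the filter of 1 RPKM in at least 3 libraries and were tested with limma among 14195 genes, and Gfap was not. At day 1, 2 of the 9 tested members passed an adjusted p of 0.05, Glul higher and Ednrb lower, against 3.43% of all tested genes (2.6% higher and 0.831% lower). On the scaled values 3 members did not overlap naive at day 1, Ednrb, Glul and Sox10, as did 21.9% of all genes. At day 3, 1 of the 9 passed, Glul, higher, against 5.67% of all tested genes (3.72% higher and 1.95% lower), and 2 did not overlap, Glul and S100b, against 26.4% of all genes. At day 7 limma called 0 of the 9 members, against 2.92% of all genes (2.32% higher and 0.599% lower), and 1 did not overlap, Glul, against 16.8%. Glul also had an unadjusted p under 0.05, while array weights called Glul and voom on recovered reads called 0. Between the injured groups, Ednrb passed for day 3 against day 1, where 0.507% of genes did (0.38% higher, 0.127% lower, 15.5% without overlap), and for day 7 against day 1, where 0.972% did (0.613% higher, 0.359% lower, 13.2% without overlap). No member passed for day 7 against day 3, where 0.0% of all genes did in limma, 716 had an unadjusted p under 0.05 and 9.23% did not overlap. Ednrb and Glul passed the test over the 4 groups, against 4.78% of all genes. The median log2 fold change of the 9 members against naive was -0.14, 0.03 and 0.08 at days 1, 3 and 7, and that of all tested genes -0.01, 0.0 and 0.0. With 9 members these counts are a description, and nothing here compared them with the other genes.

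**Figure D2:**
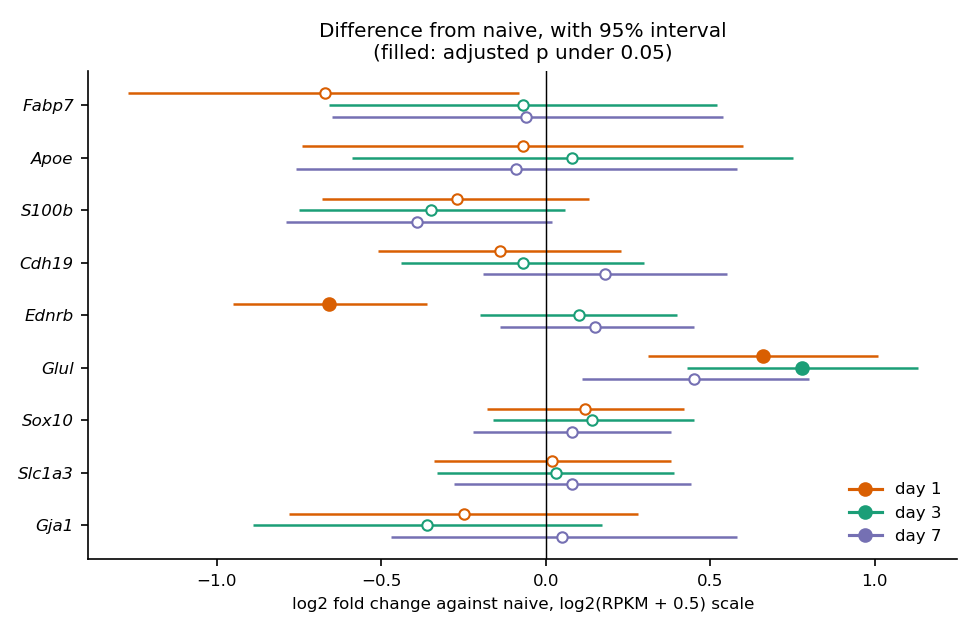
Log2 fold change against naive of the 9 tested members at days 1, 3 and 7, on the log2(RPKM + 0.5) scale, with the 95% interval of limma; filled points passed an adjusted p of 0.05. Ednrb at day 1 (-0.66) and Glul at days 1 and 3 (0.66 and 0.78) are the filled points, and the intervals of Fabp7 and Apoe are the widest.

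Ednrb was the member with the clearest dip. Endothelin B receptors on satellite glia bind endothelins and are known to regulate gap junctional coupling in these cells. The gene lies on the minus strand at chr14:103814625-103844402 (mm10, GENCODE M21). The naive libraries stood at 16.8, 17.8 and 17.2 RPKM, those of day 1 at 12.4, 8.99 and 11 RPKM, those of day 3 at 17.7, 18.7 and 20.6 RPKM, and those of day 7 at 17.7, 23.8 and 17.9 RPKM. Every day 1 library lay below every naive library. On the unscaled RPKM the libraries of days 3 and 7 lay above the naive range except day 3 replicate 1 and day 7 replicate 1, which were inside it. The order differed on the scaled values that were tested, where days 3 and 7 each overlapped naive. Ednrb fell at day 1 by 0.66 on the log2 scale (SE 0.14, 95% interval -0.95 to -0.36, limma adjusted p = 0.0173), from 17.3 ± 0.504 to 10.8 ± 1.74 RPKM, or 1.58-fold. Between 571 and 1835 reads per library lay behind these values.

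Ednrb was then higher at day 3 than at day 1 by 0.76 (SE 0.14, limma adjusted p = 0.0308) and higher at day 7 than at day 1 by 0.81 (SE 0.14, limma adjusted p = 0.0132). Day 3 against naive differed by 0.10 (95% interval -0.2 to 0.4) and day 7 against naive by 0.15 (-0.14 to 0.45), neither passing. Over the 4 groups the limma adjusted p was 0.00682, and Ednrb passed that test in all 24 alternatives. The day 1 call against naive held in 21 of 25 alternatives. Its adjusted p was 0.087 with naive replicate 2 left out, 0.0709 with naive replicate 3, 0.0698 with day 1 replicate 2 and 0.0569 with day 1 replicate 3. The day 3 against day 1 call was lost without naive replicate 3 (0.0548), day 1 replicates 2 (0.127) or 3 (0.108) or day 3 replicates 1 (0.0951), 2 (0.117) or 3 (0.132), and the day 7 against day 1 call without day 1 replicates 2 (0.0531) or 3 (0.0535) or day 7 replicate 2 (0.0617). Without naive replicate 1 and day 7 replicate 2, the libraries with muscle transcripts, the day 7 against day 1 difference was 0.69 (limma adjusted p = 0.0727).

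Of the 8 genes of the endothelin system, 5 were tested, and 2 fell at day 1, Ednrb and Mme, where 0.831% of all tested genes were called lower. The ligands Edn1, Edn2 and Edn3 were not tested because they were below the filter, with naive levels of 0.39 ± 0.0865, 0.431 ± 0.106 and 0.318 ± 0.0592 RPKM (SD, n = 3) and no library above 0.846 RPKM. Mme, neprilysin, a peptidase that can degrade endothelins, fell by 0.58 at day 1 (SE 0.15, limma adjusted p = 0.0442) and by 0.60 at day 3 (SE 0.15, limma adjusted p = 0.0258), from 17.9 ± 0.374 to 11.8 ± 0.504 and 11.9 ± 0.277 RPKM. Leaving out any naive or day 1 library, any day 3 library or day 7 replicate 2 ended the day 1 call of Mme (adjusted p 0.0559 to 0.157), as did no expression filter (0.078) and plain moderation (0.076), and leaving out any naive or day 3 library ended its day 3 call (0.0524 to 0.102). Ednra, the endothelin A receptor of vascular smooth muscle and other cells, stood at 5.26 ± 0.964 RPKM in naive ganglia and 2.89 ± 0.524 RPKM at day 1, and did not pass (log2 fold change -0.76, SE 0.2, limma adjusted p = 0.0623). The converting enzymes Ece1 and Ece2 had log2 fold changes of 0.07 and 0.32 at day 1, neither passing. Of the 9 endothelial markers, limma called 0 at day 1 (2 with an unadjusted p under 0.05), and their summed level was 43.0 to 45.4 RPKM in naive and 42.3 to 46.1 RPKM at day 1. The sum does not show single markers. Cldn5 stood at 0.961 ± 0.291 RPKM in naive and 0.21 ± 0.112 RPKM at day 1, and Emcn at 7.36 ± 1.15 and 5.62 ± 1.05 RPKM. Log2 fold changes at day 1 were positive for 5 of the 9 markers and negative for 4.

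Glul was the member that rose. Glutamine synthetase turns glutamate taken up by the glia into glutamine, which neurons use again. The gene lies on the plus strand at chr1:153899944-153909723 in the same annotation. Its level was 19.8, 17.1 and 13.9 RPKM in the naive libraries, 30.7, 20.3 and 30.5 RPKM at day 1, 26.9, 30.6 and 31.9 RPKM at day 3, and 18.0, 28.7 and 25.4 RPKM at day 7. The libraries of days 1 and 3 all lay above the naive ones, with day 1 replicate 2 nearest to them, and on the unscaled RPKM day 7 replicate 1 fell inside the naive range. Glul rose by 0.66 at day 1 (SE 0.16, 95% interval 0.31 to 1.01, limma adjusted p = 0.0388) and by 0.78 at day 3 (SE 0.16, 0.43 to 1.13, limma adjusted p = 0.0105), which is 1.58-fold and 1.71-fold. At day 7 the difference of 0.45 (0.11 to 0.8) did not pass (limma adjusted p = 0.2).

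Day 7 did not differ from day 3 by the test (-0.32, 95% interval -0.67 to 0.02, limma adjusted p = 0.947), so a return of Glul toward naive was not shown. The day 3 call held in 24 of 25 alternatives and was lost without naive replicate 3 (0.66, adjusted p = 0.0657). The day 1 call held in 11 of 25. Among single libraries it was lost without naive replicates 1 (0.0582), 2 (0.0893) or 3 (0.187), day 1 replicates 1 (0.195) or 3 (0.127), day 3 replicates 2 (0.0569) or 3 (0.0571), or day 7 replicate 3 (0.0516), and also with no expression filter (0.0767) and with no scaling (0.111). The test over the 4 groups gave a limma adjusted p of 0.0361 and passed in 10 of 24 alternatives, its highest value being 0.203 without naive replicate 3.

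Of 11 genes of glutamate uptake and recycling, 10 were tested. At day 1, 3 rose and none fell, Glul, Slc1a2 and Slc38a1, where 2.6% of all tested genes were called higher. At day 3, 2 rose, Glul and Slc1a2, where 3.72% were, and at day 7 limma called 0 (3 with an unadjusted p under 0.05). Slc1a2, the glutamate transporter GLT-1, stood at 1.53, 1.95 and 1.94 RPKM in the naive libraries, at 3.6, 4.66 and 3.3 RPKM at day 1 and at 3.86, 3.12 and 3.3 RPKM at day 3. It rose by 0.92 at day 1 (SE 0.2, limma adjusted p = 0.0208) and by 0.74 at day 3 (SE 0.2, limma adjusted p = 0.0434). The day 1 call was lost without naive replicates 1 or 3 or day 1 replicates 1 or 2 (0.0557 to 0.094), and the day 3 call without any naive or day 3 library, day 1 replicate 1 or day 7 replicate 2 (0.0543 to 0.156).

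Slc38a1, a glutamine transporter of neurons, rose from 12.9 ± 1.37 to 22.6 ± 1.81 RPKM at day 1 (log2 fold change 0.80, SE 0.18, limma adjusted p = 0.0272), a call lost without naive replicates 1 or 3 or day 1 replicates 1 or 2 (0.0753 to 0.136), with no expression filter (0.0621) and with plain moderation (0.0586). The member Slc1a3, the other glial glutamate transporter, was flat beside them. It stood at 2.99, 2.92 and 2.68 RPKM in naive libraries and between 2.35 and 3.55 RPKM after injury, with log2 fold changes of 0.02, 0.03 and 0.08 at days 1, 3 and 7. The 95% interval at day 1 was -0.34 to 0.38, so a change of the size seen for Glul lay outside it. Only 146 to 259 reads per library lay behind Slc1a3.

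Gfap, on the minus strand at chr11:102887336-102900912, was rare in every library. The naive libraries held 13, 5 and 4 reads of it (0.223, 0.0732 and 0.0647 RPKM), those of day 1 held 51, 21 and 25 reads (0.786, 0.353 and 0.342 RPKM), those of day 3 held 3, 6 and 11 reads (0.046, 0.0932 and 0.178 RPKM), and those of day 7 held 6, 14 and 5 reads (0.0913, 0.195 and 0.0901 RPKM). All 3 day 1 libraries were above all 9 others, and the naive, day 3 and day 7 libraries overlapped. Summed over 3 libraries, Gfap made up 0.475 of every 1000000 reads in naive ganglia (95% exact Poisson interval 0.298 to 0.719), 2.0 at day 1 (1.62 to 2.44), 0.425 at day 3 (0.26 to 0.657) and 0.527 at day 7 (0.341 to 0.778). These intervals cover counting error only, and the ratio of day 1 to naive was 4.21. Naive replicate 1 held 13 of the 22 naive reads, and the ratio was 7.11 without it, 2.97 without day 1 replicate 1, which held 51 of the 97 reads of day 1, and between 3.46 and 4.96 without any of the other 4 libraries.

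The day 1 difference of Gfap did not pass a test across all genes. With no expression filter its log2 fold change was 0.67 on the log2(RPKM + 0.5) scale, which understates changes this far below 0.5 RPKM (limma adjusted p = 0.092). With voom on recovered reads and a filter at 10 reads in 3 libraries, chosen after seeing the data, the log2 fold change was 2.06 (SE 0.62, limma adjusted p = 0.0629), and over the 4 groups the adjusted p was 0.0635. A single gene at 3 libraries against 3 cannot go below an exact permutation p of 0.1. Astrocytes of the central nervous system are the richest source of Gfap. Their marker Aqp4 stood at 3.79 ± 0.623 RPKM in naive ganglia and 3.31 ± 0.535 RPKM at day 1, and Aldh1l1, a folate enzyme and astrocyte marker, rose by 1.08, 1.22 and 0.99 at days 1, 3 and 7 (limma adjusted p = 0.00862, 0.00227 and 0.0153), from 1.01 ± 0.243 to 2.64 ± 0.352 RPKM at day 1. Naive libraries of Aldh1l1 spanned 0.769 to 1.26 RPKM, so it passed the filter of 1 RPKM in 3 libraries only with injured ones. Of the 8 central glia genes, 4 were tested, and Aldh1l1 and Slc1a2 rose at day 1, where 2.6% of all tested genes were called higher. The 8 summed to 8.04 to 8.6 RPKM in naive libraries and 10.5 to 12.3 RPKM at day 1, and the 4 oligodendrocyte genes stayed under 1 RPKM. Their part in the Gfap values was not tested. The call of Aldh1l1 was lost at day 1 without naive replicate 3 (0.0532) or day 1 replicate 1 (0.0556) and at day 7 without naive replicates 1 (0.0583) or 3 (0.0845) or day 7 replicate 3 (0.0692).

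Of the other 3 glial intermediate filament genes, all tested, limma called 0 at day 1 (1 with an unadjusted p under 0.05) and 1 at day 3, where 5.67% of all tested genes were called. Vim, vimentin, which many cell types make, rose at day 3 by 0.63 (SE 0.16, limma adjusted p = 0.0323), from 132 ± 24 to 206 ± 22.8 RPKM, a call lost without naive replicates 2 or 3, day 1 replicate 1 or any day 3 library (0.053 to 0.143), and with no scaling (0.0917), no expression filter (0.053) or plain moderation (0.0533). Synm and Nes had log2 fold changes of -0.35 and -0.08 at day 3 and did not pass. Stat3, a transcription factor known to drive Gfap in astrocytes, rose by 0.54 at day 1 (SE 0.11, limma adjusted p = 0.0108) and by 0.46 at day 3 (limma adjusted p = 0.0199), from 43.8 ± 2.55 to 64.0 ± 8.44 and 61.6 ± 1.74 RPKM, and neurons express it too. The day 1 call was lost without naive replicate 3 (0.0677) or day 1 replicate 1 (0.0618), the day 3 call without any naive or day 3 library (0.0539 to 0.103). Of the 10 tested genes of the gp130 and Stat3 axis, 2 rose at day 1, Stat3 and the oncostatin M receptor Osmr (0.39, limma adjusted p = 0.0413, lost without any naive, day 1 or day 3 library or day 7 replicate 2 at 0.0528 to 0.192, with plain moderation at 0.0673 and with only the compared groups at 0.0694). At day 3, 1 rose, and at day 7 limma called 0 (1 with an unadjusted p under 0.05). Of all tested genes, 2.6% were called higher at day 1 and 3.72% at day 3.

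Fabp7, the most abundant member, varied widely between libraries of a group. The naive libraries stood at 248, 154 and 170 RPKM, day 1 at 107, 81.6 and 180 RPKM, day 3 at 143, 205 and 206 RPKM, and day 7 at 121, 261 and 195 RPKM. Day 1 replicates 1 and 2 were below every naive library and replicate 3 was among them. The day 1 difference of -0.67 was about as large as that of Ednrb but its standard error was 0.27, and it did not pass (95% interval -1.27 to -0.08, limma adjusted p = 0.255). With array weights, which give less weight to libraries that deviate, the same difference of -0.67 had a standard error of 0.19 and passed (limma adjusted p = 0.0328), as did Fabp7 over the 4 groups (0.0331). Array weights called more of all genes too. Alternatives other than leaving out 1 library called up to 1844 genes at day 1 and 2105 over the 4 groups, against 487 and 679 without weights. The log2 fold changes at days 3 and 7 were -0.07 and -0.06.

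S100b stood at 103, 68.6 and 76.8 RPKM in naive libraries, 58.4, 61.6 and 84.1 RPKM at day 1, 53.3, 72.3 and 72.9 RPKM at day 3, and 42.5, 79.7 and 75.5 RPKM at day 7. Its log2 fold changes at days 1, 3 and 7, -0.27, -0.35 and -0.39, did not pass (limma adjusted p = 0.568, 0.379 and 0.421). Apoe stood at 123, 72.5 and 75.2 RPKM in naive libraries, 75.7, 65.6 and 114 RPKM at day 1, 69.8, 102 and 118 RPKM at day 3, and 45.3, 110 and 118 RPKM at day 7. Its groups overlapped on every day, and its log2 fold changes of -0.07, 0.08 and -0.09 did not pass. The 95% intervals, -0.74 to 0.60 at day 1 and -0.76 to 0.58 at day 7, reach as far as the fall of Ednrb.

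The libraries in which Fabp7, S100b and Apoe were high within their group were mostly the same. Naive replicate 1 was highest of the naive libraries, day 1 replicate 3 highest of day 1, and day 7 replicate 1 lowest of day 7 for each of the 3. After subtracting the group means, Pearson's r over the 12 libraries was 0.96 between S100b and Apoe, 0.89 between Fabp7 and S100b and 0.87 between Fabp7 and Apoe, while Cdh19 had an r of -0.93 with Apoe. These points share their libraries and their scaling and are a description. Apoe, S100b and Fabp7 are the shortest of the tested members by the lengths recovered from the files (1251, 1661 and 762 bases), and these libraries also stood apart in their reads of short genes. The balance of each library, the median log2 deviation of 2933 genes under 1500 bases minus that of 2646 genes over 5000 bases, was highest within its group in naive replicate 1 (0.15), day 1 replicate 3 (0.22) and day 3 replicate 2 (0.26) and lowest in day 7 replicate 1 (-0.36).

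**Figure D3:**
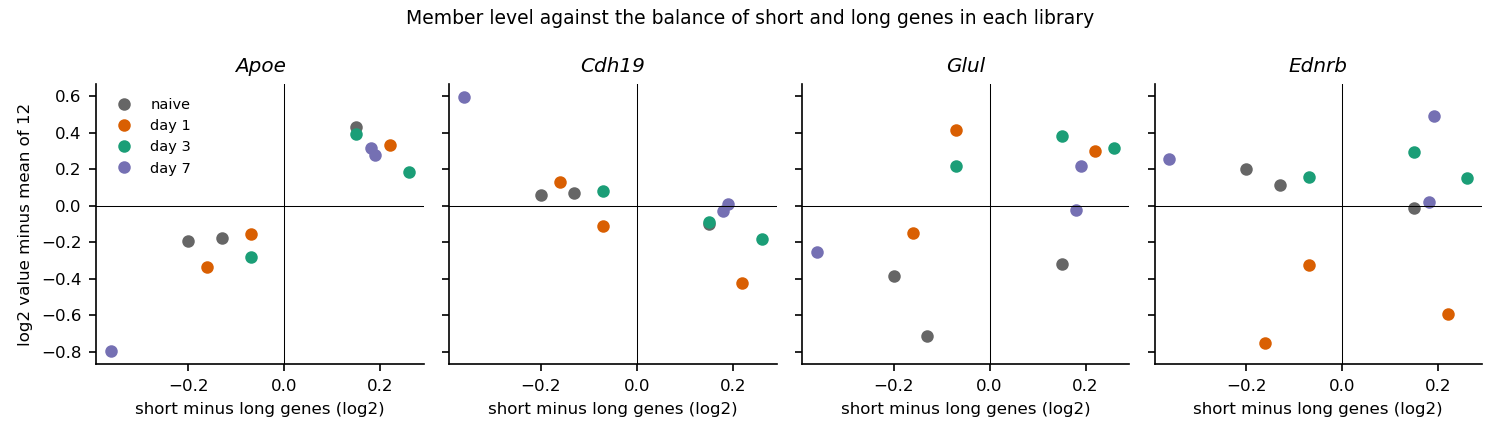
Log2 level of Apoe, Cdh19, Glul and Ednrb in each of the 12 libraries, as the difference from the gene's mean, against the library's balance of short and long genes (log2). Apoe rises with the balance (r = 0.93) and Cdh19 falls (r = -0.8), while Ednrb shows no relation (r = 0.04) and its 3 day 1 libraries lie lowest at any balance.

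Over the 12 libraries the r with that balance was 0.93 for Apoe, 0.82 for Sox10, 0.66 for Fabp7, 0.62 for S100b, 0.54 for Glul, 0.21 for Gja1, 0.1 for Slc1a3, 0.04 for Ednrb and -0.8 for Cdh19. With the balance as a covariate, added after seeing the data, the standard error of Fabp7 at day 1 went from 0.27 to 0.13, and Fabp7 was lower at day 1 by 0.76 (limma adjusted p = 0.0033) and higher at day 7 than at day 1 by 0.60 (limma adjusted p = 0.0251). In the same fit S100b was lower than naive at days 1, 3 and 7 by 0.33, 0.54 and 0.46 (limma adjusted p = 0.00854, 0.000235 and 0.000865), Cdh19 was higher at day 7 by 0.25 (limma adjusted p = 0.0432), and Ednrb (-0.65) and Glul (0.63 and 0.67 at days 1 and 3) passed as before. That fit called 1285 of all genes at day 1 in place of 487, 1542 at day 3 in place of 805 and 1203 at day 7 in place of 415. For day 7 against day 1 it called 532 in place of 138. The part of transcript length in the values of Fabp7, S100b and Cdh19 was not tested further, and without the covariate S100b and Cdh19 passed in no alternative against naive, and Fabp7 with array weights.

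Genes that handle apolipoprotein E and its lipids were listed beside Apoe. Of the 13 listed genes, all tested and Apoe and Fabp7 among them, 1 rose at day 1, where 3.43% of all genes were called, and 1 at day 7, where 2.92% were, Abca1 on both days. Of those reported here, Abca1 rose and Abcg1 fell at day 3. Abca1, the exporter that loads cholesterol on to apolipoprotein E, stood at 34.2, 36.3 and 38.0 RPKM in naive libraries, 71.2, 65.2 and 55.1 RPKM at day 1, 114, 100 and 97.4 RPKM at day 3, and 115, 97.6 and 85.0 RPKM at day 7, with no overlap between naive and injured. It rose by 0.81, 1.48 and 1.41 at days 1, 3 and 7 (SE 0.17 each, limma adjusted p = 0.0185, 0.000116 and 0.000274). The day 1 call was lost without any naive library or day 1 replicates 1 or 2 (0.0532 to 0.111), and the calls of days 3 and 7 held in all 25 alternatives. Abcg1, which passes cholesterol to larger lipoproteins, fell by 0.55 at day 3 (limma adjusted p = 0.0223), a call lost without naive replicates 2 or 3 or day 3 replicates 1 or 3 (0.0539 to 0.126). Marker transcripts of macrophages, a further source of Apoe and Abca1, were higher at days 3 and 7. Of 13 tested macrophage markers, 6 rose at day 3 and 6 at day 7, where 3.72% and 2.32% of all tested genes were called higher. The median log2 fold changes of the markers were 0.92 and 1.11. Aif1 and Cx3cr1 reached the filter of 1 RPKM in no naive library (highest 0.828 and 0.669 RPKM). C1qc, Cd163, Tyrobp and Itgam were below it in at least 1 (lowest 0.438, 0.689, 0.842 and 0.929 RPKM). The count and the medians thus include genes that passed the filter only with injured libraries. Their summed level was 44.1 to 59.6 RPKM in naive, 79.3 to 125 RPKM at day 3 and 82.2 to 155 RPKM at day 7. Their part in the levels of Apoe was not tested.

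Gja1 carried few reads, 66 to 201 per library. Its libraries stood at 2.02, 2.26 and 2.8 RPKM in naive, 1.48, 1.68 and 2.66 RPKM at day 1, 1.33, 1.57 and 2.52 RPKM at day 3, and 1.74, 3.66 and 2.41 RPKM at day 7. All groups overlapped the naive one, and the log2 fold changes of -0.25, -0.36 and 0.05 did not pass (limma adjusted p = 0.717, 0.506 and 0.973). With 95% intervals of -0.78 to 0.28 at day 1 and -0.89 to 0.17 at day 3, neither a fall of the size of Ednrb nor no change at all was outside the data. Of 11 genes of coupling and potassium buffering, 10 were tested and only Atp1b2 rose at day 1, where 2.6% of all tested genes were called higher. None passed at days 3 and 7 in limma (2 with an unadjusted p under 0.05 on each day). Kcnj10 had log2 fold changes of 0.01, -0.06 and -0.07, and Gjc3, a connexin of myelinating and satellite glia, of -0.18, -0.05 and 0.25, none passing.

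Cdh19 was the steadiest of the abundant members in naive ganglia, at 52.5, 53.3 and 55.3 RPKM. It stood at 48.2, 56.1 and 41.6 RPKM at day 1, at 55.4, 48.9 and 52.0 RPKM at day 3 and at 74.0, 56.2 and 57.6 RPKM at day 7. Its log2 fold changes of -0.14, -0.07 and 0.18 did not pass (limma adjusted p = 0.783, 0.88 and 0.772). Sox10 stood at 17.2, 15 and 16.6 RPKM in naive libraries, 16.8, 16.4 and 19.6 RPKM at day 1, 15.6, 21.1 and 18.6 RPKM at day 3 and 12.5, 18.4 and 23.1 RPKM at day 7, with log2 fold changes of 0.12, 0.14 and 0.08. Its 95% interval at day 1, -0.18 to 0.42, left out a fall of the size of Ednrb.

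Of 13 tested transcription factors of glia and Schwann cells, Sox10 among them, 1 rose at day 1, 2 at day 3 and 1 at day 7. Of all tested genes, 2.6%, 3.72% and 2.32% were called higher on those days. Jun, which is induced in injured neurons and in Schwann cells of cut nerves, rose by 1.61, 1.51 and 1.17 (limma adjusted p = 8.51e-05, 8e-05 and 0.00108). Sox9, a partner of Sox10 in glial development, rose at day 3 by 1.19 (SE 0.24, limma adjusted p = 0.00839) from 0.468 ± 0.217 to 1.73 ± 0.355 RPKM, and at 1.07 (0.0503) it no longer passed without day 3 replicate 2. No naive library of Sox9 reached the filter of 1 RPKM (0.337 to 0.718 RPKM). Sox9 was therefore tested, and entered the day 3 count, only through the injured groups. Of 16 tested genes of myelinating Schwann cells, the other cells that make Sox10, S100b and Cdh19, only Pmp2, a lipid-binding myelin protein, fell at day 1 and limma called 0 at days 3 and 7 (1 and 0 with an unadjusted p under 0.05). At day 1, 0.831% of all tested genes were called lower. Pmp2 fell by 1.41 (limma adjusted p = 0.0185), and the call was lost without naive replicates 1 or 3 or day 1 replicates 1 or 2 (0.0552 to 0.0897).

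Non-myelinating and repair Schwann cells also make Sox10, S100b and Cdh19. Of 12 tested genes of these cells, 1 rose and none fell at day 1, 3 rose and 1 fell at day 3, and 2 rose and none fell at day 7. Of all tested genes, 3.43%, 5.67% and 2.92% were called on those days. Bdnf, a neurotrophin made by repair Schwann cells and sensory neurons, rose by 1.27 and 0.75 at days 1 and 3 (limma adjusted p = 0.000433 and 0.0127), the day 3 call being lost without naive replicate 2 or day 3 replicates 2 or 3 (0.0651 to 0.073). Gap43, a growth cone protein of neurons and non-myelinating Schwann cells, rose by 1.85 and 1.44 at days 3 and 7 (limma adjusted p = 0.000192 and 0.00219), in all 25 alternatives. Runx2, a transcription factor, rose by 0.61 and 0.65 at days 3 and 7 (limma adjusted p = 0.0176 and 0.0181), from 3.87 ± 0.286 to 6.29 ± 0.771 and 6.49 ± 0.864 RPKM. Its day 3 call was lost without naive replicates 1 or 2 or day 3 replicate 1 (0.068 to 0.0866), and its day 7 call without naive replicates 1 or 2 or day 7 replicates 2 or 3 (0.0584 to 0.08) and with only the compared groups (0.0561). Cadm2, an adhesion molecule, fell by 0.59 at day 3 (limma adjusted p = 0.0335), a call lost without any naive or day 3 library or day 1 replicate 1 (0.0519 to 0.122), with no expression filter (0.0605) and with plain moderation (0.0602). The part of these cells in the levels of the members was not tested.

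Among the 15 further satellite glia markers, 1 rose and none fell at day 1, where 3.43% of all tested genes were called, at day 3 limma called 0 (2 with an unadjusted p under 0.05), and at day 7, where 2.92% of all genes were called, 1 fell and none rose, with median log2 fold changes of 0.10, 0.06 and 0.04. Atp1b2, a sodium pump subunit of glia, rose at day 1 by 0.71 (SE 0.14, limma adjusted p = 0.0116), from 14.5 ± 0.39 to 24.3 ± 5.66 RPKM. That call was lost with no scaling (0.0629) and without naive replicate 1 (0.0539). Bcan, a matrix proteoglycan of glia, fell at day 7 by 0.70 (SE 0.16, limma adjusted p = 0.0265), from 7.69 ± 1.04 to 4.71 ± 1.3 RPKM, and the call was lost without naive replicates 2 (0.127) or 3 (0.144) or day 7 replicates 1 (0.057) or 2 (0.122), with no scaling (0.0541) and with only the compared groups (0.112). Leaving out both libraries with muscle transcripts ended the calls of Atp1b2 (0.0611) and Bcan (0.0579), and, among the genes named above, those of Glul (0.0522), Slc38a1 (0.145), Abca1 (0.105), Osmr (0.141) and Pmp2 (0.0996) at day 1, of Cadm2 (0.0734) at day 3, of Aldh1l1 (0.0835) at day 7, of Runx2 (0.0856 and 0.182) at days 3 and 7, and of Mme (0.116 and 0.067), Slc1a2 (0.117 and 0.17) and Stat3 (0.0543 and 0.071) at days 1 and 3. The summed level of the 15 was 267 to 279 RPKM in naive, 278 to 300 RPKM at day 1, 265 to 289 RPKM at day 3 and 263 to 302 RPKM at day 7.

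**Figure D4:**
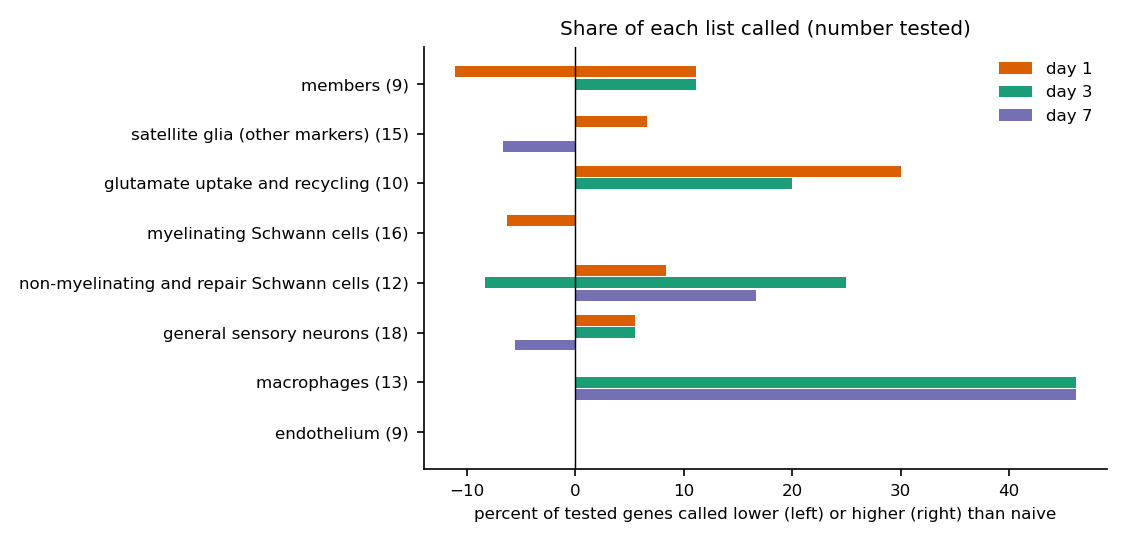
Percent of the tested genes of each of 8 lists called higher (right) or lower (left) than naive by limma at days 1, 3 and 7, with the number tested in brackets. The 9 tested members have 1 gene each way at day 1 and 1 higher at day 3, and of the lists drawn, macrophage markers have the longest bars at days 3 and 7 (6 of 13). Some of those 13 passed the expression filter only with injured libraries.

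The genes whose log2 levels over the 12 libraries were most like those of the called members were not members themselves. For Ednrb they were Serpinb9 (Pearson's r = 0.914), Otud6b (0.907) and Gng2 (0.893), and for Glul Exosc6 (0.953), Tnfrsf21 (0.953) and Myadm (0.944). Fabp7 was nearest to Pfn2 (0.96), Zbed5 (0.954) and Rgs4 (0.931), S100b to Trnp1 (0.965), Fkbp4 (0.962) and Nmb (0.952), and Apoe to Aplp1 and Mapk3 (0.971 each) and Tppp3 (0.962). Cdh19 was nearest to Zufsp (0.972), Ogt (0.965) and Scn2a1 (0.947). The best values of Sox10, Gja1 and Slc1a3 were 0.923 with Pemt, 0.9 with Pcnxl4 and 0.818 with Brd8. These are the highest values over all tested genes, from libraries that share depth and length balance, and they say nothing of shared function.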

How the data were processed

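The authors deposited 1 table per library of RPKM values per gene symbol, with no counts. The mm10 build and the tools limma, edgeR, HTSeq, STAR and bcl2fastq 2.17 are listed in the submitters' processing notes, without roles. The sources used here do not give strandedness or the annotation version. Values are whole multiples of 1 read: reads were recovered for 21590 of the 21597 genes above 0 (99.97%, tolerance 0.05 reads), giving each gene's length and each library's size.

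RPKM was divided by a trimmed-mean scaling factor (0.909 to 1.09, trims of 30% and 5%). Genes at 1 RPKM or more in at least 3 libraries (14195) were tested on log2(RPKM + 0.5) with limma 3.58.1 in R 4.3.3, with a variance trend and robust moderation, over all 12 libraries in 1 fit. Two-sided p-values were adjusted by Benjamini-Hochberg, with calls at 0.05. RPKM printed per library is unscaled. The planned count test was not used because the files hold RPKM. Voom on the recovered reads called 624, 1058 and 551 genes at days 1, 3 and 7, against 487, 805 and 415 in limma. Scripts were tested on simulated data. Gene coordinates and exons were read from GENCODE M21, and promoter windows from RefSeq.

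A gene of the lipid list is not reported here. The members and all gene lists were chosen with earlier results of these data known. Named genes are the members, up to 4 genes of each list with the smallest p over the 4 groups, and the 3 genes most like each member, with Atf3 as a check of the labels. Kcnj10, the oligodendrocyte markers and the endothelin ligands were named outside that rule, after their values were seen. Alternatives were other pseudocounts, filters and scalings, array weights, plain moderation, voom, a replicate block, fitting only the compared groups, leaving out each library, leaving out the 2 libraries with muscle transcripts, and the length balance as a covariate.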

Additional observations from a re-analysis of the deposited data

Results flagged for a closer look

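Ednrb differed between days in its change against naive. The change at day 3 was 0.76 higher on the log2 scale than at day 1 (limma adjusted p = 0.0308), and the change at day 7 was 0.81 higher than at day 1 (limma adjusted p = 0.0132), each higher in 3 of 3 libraries than in any library of day 1. Relative to the naive mean, all 3 day 1 libraries of Ednrb lay below and all 3 day 3 libraries above, with a mean difference of 0.10 at day 3. That reversal of side was not tested by itself, and day 3 did not differ from naive by the test (limma adjusted p = 0.777).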

How the results depend on the processing

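The alternatives moved the calls more than the sizes of change. At day 1, where 2 members were called, the count was 1 with no expression filter, no scaling, plain moderation, only the compared groups, or without the 2 libraries with muscle transcripts, 3 with array weights, which added Fabp7, 4 with the length balance as a covariate, and 0 to 2 with 1 library left out. At day 3 (1 called) it was 2 with the covariate and 0 to 1 with 1 library left out. At day 7 (0 called) it was 1 with array weights, 2 with the covariate and 0 with any library left out. For day 3 against day 1 (1 called) it was 0 with no filter or plain moderation and 0 to 1 with 1 library left out. For day 7 against day 1 (1 called) it was 0 with only the compared groups or without the 2 muscle libraries, 3 with the covariate and 0 to 1 with 1 library left out. Over the 4 groups (2 called) it was 1 with no filter, no scaling, plain moderation or without the muscle libraries, 3 with array weights, which added Fabp7, 5 with the covariate and 1 to 2 with 1 library left out. Except where stated above, the cause was not tested.

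The labels state no pairing by replicate number. Deviations of same-numbered libraries correlated from -0.34 to 0.234 in 18 pairs, 3 of them over 0.1, and 4 of 12 libraries correlated best with their own number. Taken within groups of 3 libraries, these values cannot show whether the numbers pair libraries or share a batch. With the number as a replicate block, 1 member was called at day 1 (Ednrb), 0 for day 3 against day 1 and 1 over the 4 groups (Ednrb), and 362, 652 and 323 genes were called at days 1, 3 and 7. The block also ended the calls of Mme (0.0604) and Osmr (0.0759) at day 1 and of Slc1a2 (0.0659) and Vim (0.0622) at day 3. With no expression filter Slc1a2 did not pass at day 3 (0.0706), and with only the compared groups Aldh1l1 did not at day 7 (0.0702).

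Signs changed only for differences that did not pass. Log2 fold changes ranged, with 1 library or both muscle libraries left out, for Fabp7 from -0.17 to 0.10 (day 3) and -0.29 to 0.17 (day 7), for Gja1 from -0.28 to 0.20 (day 7), for Slc1a3 from -0.05 to 0.12 (day 1) and -0.06 to 0.18 (day 3), for Apoe from -0.26 to 0.13 (day 1), -0.07 to 0.28 (day 3) and -0.28 to 0.28 (day 7), for Cdh19 from -0.28 to 0.0 (day 1) and -0.02 to 0.29 (day 7), for Sox10 from -0.06 to 0.24 (day 7) and for Ednrb from -0.02 to 0.27 (day 7). With array weights Fabp7 was 0.05 and 0.21 at days 3 and 7, Slc1a3 -0.02 at day 3 and Apoe 0.22 at day 7. Without the muscle libraries Fabp7 was 0.10 at day 3, Gja1 -0.28 and Ednrb -0.02 at day 7, and Apoe 0.13 at day 1. With the covariate Apoe was -0.25 and Cdh19 0.10 at day 3. Depth limits Gfap, at 3 to 51 reads per library.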
